A study of Rattus norvegicus with 2 samples.

Results

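The intermediate filament genes sought in aged rat kidney were 5 keratins (Krt7, Krt8, Krt18, Krt19 and Krt20), vimentin (Vim), nestin (Nes) and desmin (Des). They were picked by name, with earlier results of these data known. Of the 8 names, 5 (Krt7, Krt8, Krt19, Vim and Des) stand in the symbol column of the deposited gene table of 29516 rows. Nestin stands there under the protein-entry name NEST_RAT, with the description Nestin, and its values are given beside those 5. Krt18 and Krt20 were not found under their symbols or RefSeq synonyms and are not analysed here. The RNA came from kidneys of F344 rats, an inbred laboratory strain, aged 20 months. One group ate a casein control diet and the other a 14% soy diet, in each case for 4 months after the animals had come from the NIA colony at 16 months of age. The comparison addresses whether the soy diet attenuates the chronic kidney disease of old F344 rats. Each diet is represented by 1 library. The sources used here do not state whether a library pooled several rats, their sex, or which part of the kidney was used.

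Intermediate filaments are the rope-like part of the cytoskeleton that gives cells mechanical strength. Keratins are the filaments of epithelia and assemble only as pairs of a type I and a type II chain, so that Krt7 and Krt8 (type II) need partners such as Krt18, Krt19 or Krt20 (type I). In the healthy kidney, simple keratins are found mainly in the collecting duct and other distal segments and in the parietal epithelium, while proximal tubule cells hold little of them and gain keratin and vimentin when injured. Vimentin and desmin are type III filaments that form without a partner. Vimentin belongs to fibroblasts, endothelial cells, leukocytes and podocytes, desmin to muscle, mesangial cells and injured podocytes, and nestin, a long filament protein that joins vimentin filaments, to podocytes and to progenitor cells.

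The values are taken as FPKM, fragments scaled to transcript length and library depth, so levels of different genes can be compared. They summed to 643145 FPKM over all genes in the casein library and 656248 in the soy library. The number of fragments is unknown, but low values fall into steps. Among 2236 rows that the authors did not test and that had values above 0 in both libraries, the soy value was most often 1.09 times the casein value, with 282 rows at that ratio, 116 at 1/2 of it and 97 at double. At that ratio 1 fragment is worth 1.09 times as much in the soy library, which corresponds to a casein library deeper by that factor if no further scaling was applied. With 1 library per diet no spread between rats exists, no test was run, and no difference below has a replicate check.

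All 5 genes found by symbol, and nestin, had lower values in the soy library than in the casein library. Vim, Des and Krt8 were lower by 1.5-fold or more, as was Nes, while Krt19 and Krt7 differed by less. Genes averaging 1 FPKM or more across both libraries, 14077 in number, are called expressed below; of these, 8.08% were lower under soy by 1.5-fold or more and 3.43% higher by as much. None of the 5 genes was 1.5-fold higher. Differences are log2((soy FPKM + 0.1)/(casein FPKM + 0.1)), and a fold printed for a gene is the plain FPKM ratio, while counts past 1.5-fold apply that limit to the log2 difference. Where 2 FPKM values stand side by side without a diet, casein comes first. The median log2 difference of the 5 genes was -0.65, and -0.66 with nestin, while that of all expressed genes was 0.01. In whole-kidney RNA, fewer cells of a type and less RNA per cell cannot be told apart.

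**Figure D1:**
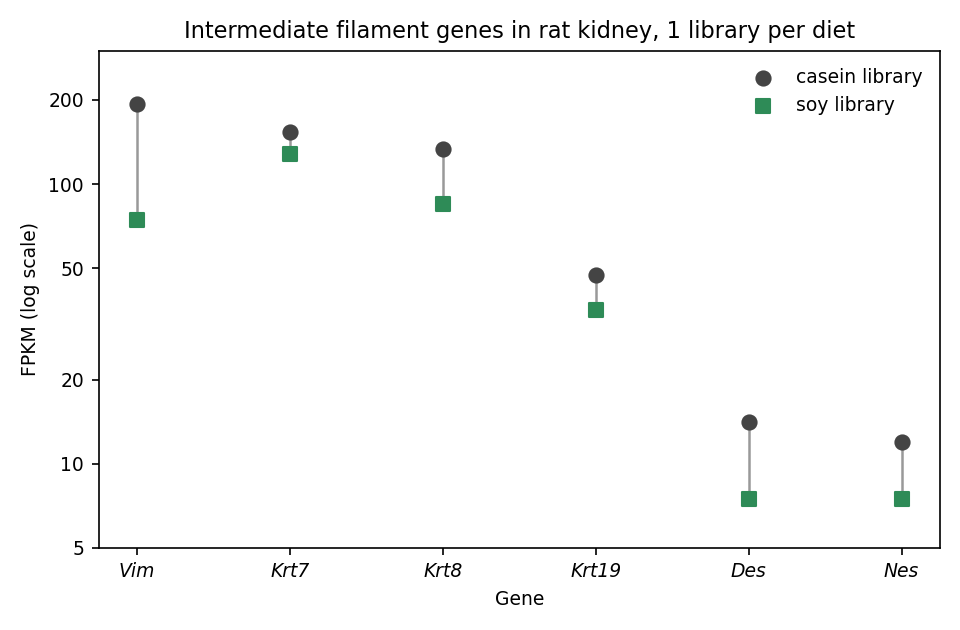
FPKM (log scale) of each intermediate filament gene in the casein library (circles) and the soy library (squares), 1 library per diet, so without error bars. Every square lies below its circle; the gap is widest for Vim (193 and 74.6 FPKM) and narrowest for Krt7 (154 and 128 FPKM).

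Among the type II keratins, Krt7, a keratin of ducts and of the urothelium, had 154 FPKM under casein and 128 under soy, 1.203-fold lower. The gene lies on chromosome 7 (140160829 to 140175532) in the table's coordinates, whose build the sources used here do not name. Its log2 difference was -0.27, and 16.1% of expressed genes had a lower one. Krt7 was second to Vim among the filament genes under casein and the most abundant of them under soy.

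Krt8, the type II keratin of simple epithelia throughout the body, had 133 FPKM under casein and 84.6 under soy, 1.57-fold lower, with a log2 difference of -0.65. It lies on chromosome 7 from 140713910 to 140721263. The difference was close to the 1.5-fold limit and came inside it, at -0.58, when values were centred on housekeeping genes. Krt7 and Krt8 were nearer to each other under casein, where Krt7 stood at 1.16 times Krt8, than under soy, where it stood at 1.51 times.

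Krt19, the smallest type I keratin, which has almost no tail domain, had 47.3 FPKM under casein and 35.6 under soy, 1.33-fold lower, with a log2 difference of -0.41. It lies on chromosome 10 from 89080953 to 89085670. It was the only type I keratin among those sought that could be measured. Krt8 stood at 2.82 times Krt19 under casein and 2.38 times under soy. One row described as keratin 18, LOC303341, spans 732 bases of chromosome 10, whereas RefSeq places Krt18 on chromosome 7, so it was not taken as Krt18. It had 7.73 FPKM under casein and 7.94 under soy, and fragments of near-identical genes can be shared between such rows, which makes its value uncertain.

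Vim, the type III filament of mesenchymal cells, showed the largest difference of the 6 genes. It had 193 FPKM under casein and 74.6 under soy, 2.59-fold lower, with a log2 difference of -1.37, and 1.87% of expressed genes had a lower one. The gene lies on chromosome 17 from 87847240 to 87855757. Vim was the most abundant of the filament genes under casein and the third under soy, below Krt7 and Krt8. It stood at 1.45 times Krt8 under casein and 0.88 times under soy.

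Vim was the only gene of the 6 that the authors' deposited table marks as different, with q = 1.78e-05, whereas 0.745% of the 17450 genes they tested are marked lower. The authors' deposited table of 145 transcripts, which holds only marked ones, lists 1 Vim transcript with the same FPKM values and q = 2.23e-05, and none of the other 5 genes. In the authors' deposited table Des had q = 0.114, Krt8 q = 0.232, Nes q = 0.281, Krt19 q = 0.928 and Krt7 a q of nearly 1 (0.999991). The sources used here do not state how many libraries that test used, and with 1 library per diet a low q says nothing of the spread between rats.

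Des, the muscle-type filament that also marks mesangial cells, had 14.1 FPKM under casein and 7.47 under soy, 1.88-fold lower, with a log2 difference of -0.90, and 4.27% of expressed genes had a lower one. It lies on chromosome 9 from 74637793 to 74645503. Nes had 11.9 FPKM under casein and 7.48 under soy, 1.59-fold lower, with a log2 difference of -0.67, and lies on chromosome 2 from 180052034 to 180060546. Des and Nes were the least abundant of the 6 genes in both libraries. Vim stood at 13.7 times Des under casein and 9.99 times under soy.

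The make-up of the 6 genes differed between the libraries. Their summed FPKM was 554 under casein and 338 under soy, 1.64-fold lower. Vim held 34.9% of the sum under casein and 22.1% under soy, while Krt7 held 27.8% and 37.9%. Krt8 held 24.1% and 25.05%, Krt19 8.54% and 10.5%, Des 2.54% and 2.21%, and Nes 2.16% and 2.22%. Vim was the gene whose share was most reduced, and the share of Krt7 the one most raised.

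**Figure D2:**
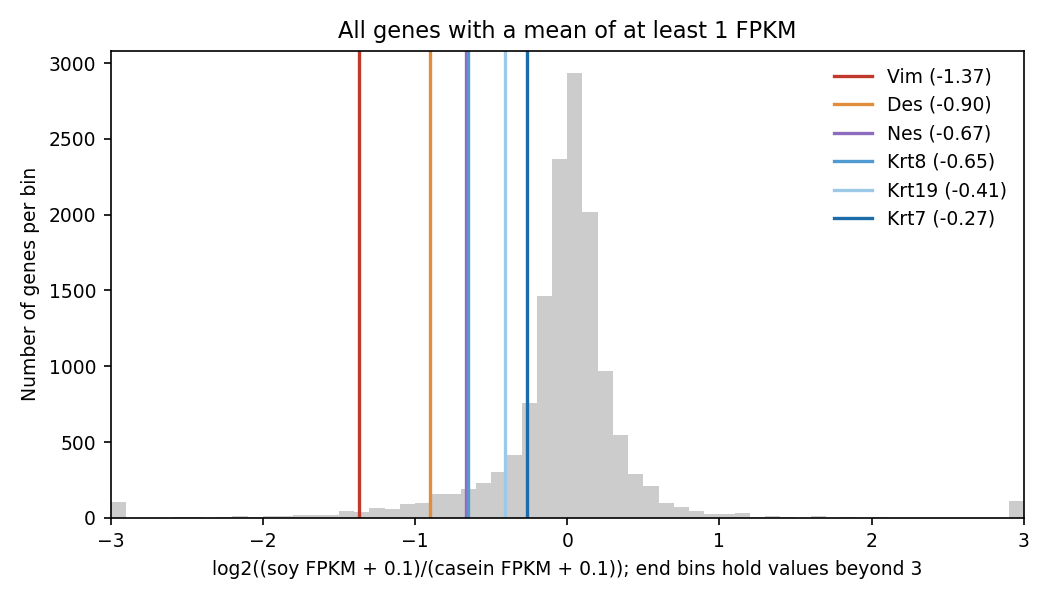
Number of genes (y axis) by log2 difference, soy against casein (x axis), for the 14077 expressed genes, with a vertical line for each intermediate filament gene. All 6 lines lie left of 0, from -1.37 for Vim to -0.27 for Krt7, while the middle 50% of all genes lie between -0.14 and 0.14.

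Promoter sequences are shown for the 4 genes that were at least 1.5-fold lower, so that what their start sites share can be read. They come from RefSeq (build GRCr8, not necessarily that of the files) and run 5′ to 3′ from 250 bases before the annotated start to 50 bases after it. RefSeq promoters were at hand for 6 of the 8 genes sought, without Krt7 and Krt19. Vim is chr17:81577011-81577310 on the plus strand, Des chr9:84299376-84299675 on the plus strand, Nes chr2:175736338-175736637 on the plus strand and Krt8 chr7:135010290-135010589 on the minus strand. Capitals mark matches, on either strand, to 4 motifs. The AP-1 motif is TGANTCA, the GC box motif is GGGCGG, the TATA box motif is TATAAA and the CAAT box motif is CCAAT.
Vim: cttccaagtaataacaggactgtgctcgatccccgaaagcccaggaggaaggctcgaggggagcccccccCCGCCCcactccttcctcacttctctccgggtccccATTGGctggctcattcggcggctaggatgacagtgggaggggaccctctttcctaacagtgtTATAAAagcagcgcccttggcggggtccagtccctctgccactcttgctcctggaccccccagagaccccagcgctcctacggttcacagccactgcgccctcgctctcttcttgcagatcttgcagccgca
Des: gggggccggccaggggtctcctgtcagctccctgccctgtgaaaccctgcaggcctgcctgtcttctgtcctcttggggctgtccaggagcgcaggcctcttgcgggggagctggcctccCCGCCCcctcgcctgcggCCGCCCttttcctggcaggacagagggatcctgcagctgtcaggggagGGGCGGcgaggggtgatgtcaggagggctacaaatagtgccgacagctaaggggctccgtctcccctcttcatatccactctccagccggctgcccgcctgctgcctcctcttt
Nes: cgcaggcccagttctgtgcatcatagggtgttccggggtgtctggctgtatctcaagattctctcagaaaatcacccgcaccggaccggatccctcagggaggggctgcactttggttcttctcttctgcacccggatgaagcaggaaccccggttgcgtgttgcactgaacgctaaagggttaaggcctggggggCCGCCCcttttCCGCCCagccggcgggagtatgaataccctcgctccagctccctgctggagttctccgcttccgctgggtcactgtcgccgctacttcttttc
Krt8: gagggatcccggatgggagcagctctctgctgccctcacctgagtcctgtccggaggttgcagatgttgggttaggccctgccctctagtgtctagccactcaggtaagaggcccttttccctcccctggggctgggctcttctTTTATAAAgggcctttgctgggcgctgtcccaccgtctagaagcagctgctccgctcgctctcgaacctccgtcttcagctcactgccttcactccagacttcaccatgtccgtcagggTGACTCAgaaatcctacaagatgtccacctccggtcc

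The 4 promoters have no motif of these in common. Des holds 3 GC box matches, Nes 2, Vim 1 and Krt8 0, and 33.1% of all 33469 RefSeq promoters of this length hold at least 1. Krt8 alone of the 4 holds an AP-1 match, at position 14 after the start, and 7.33% of all promoters hold one. In the printed Krt8 sequence the annotated start falls on the A of an ATG, the codon that begins a protein. The AP-1 match thus lies after that ATG, and Krt8 positions may be counted from a translation start rather than a transcription start. Counted from the annotated start, Vim has a TATA box match at -82 and a CAAT box match in reverse orientation at -144. Krt8 has a pair of overlapping TATA box matches, 1 on each strand, at -106 and -104. Of all promoters 14.2% hold a TATA box match and 37.5% a CAAT box match. GC content was 62.0% for Vim, 67.7% for Des, 60.0% for Nes and 59.0% for Krt8, against a median of 51.7% over all promoters. The other promoters at hand, of Krt18 and Krt20, whose levels were not found, had 60.3% and 49%. A match is only a run of letters and does not show that a factor binds there.

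Outside the simple keratins, the keratin family was listed at low values. Of 45 keratin rows in the table, 19 were listed at 0 under both diets, another 19 had a mean below 1 FPKM, and 7 were expressed. By position, 19 rows lie on chromosome 7 (3 expressed) and 26 on chromosome 10 (4 expressed). Krt7, Krt8 and Krt19 held 93.3% of the FPKM of these 45 rows under casein and 92.1% under soy. Krt18, Krt20, Krt5, Krt6a and Krt12 were not found by name, so shares and sums over these rows may not cover the whole family. The summed level of the 45 rows was 359 FPKM under casein and 270 under soy, 1.33-fold lower. Of the 7 expressed rows, 5 were lower under soy and 2 higher. Krt80, a type II keratin of differentiating epithelia, had 9.40 FPKM under casein and 7.87 under soy. Of the remaining 3, Krt10, a type I keratin of the upper epidermis, had 2.27 and 3.25 FPKM, and Krt23 1.86 and 1.29. The third is the row LOC303341.

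Among other intermediate filament genes, 1 of 9 expressed ones was past 1.5-fold. Of all expressed genes, 8.08% were at least 1.5-fold lower and 3.43% at least 1.5-fold higher, so this count does not set the list apart. Of 26 names in a list of further keratins, neurofilaments, lamins and related genes, 22 were found and 9 were expressed. Of these 9, 6 were lower and 3 higher under soy, 1 was at least 1.5-fold lower and 0 at least 1.5-fold higher, and their median log2 difference was -0.34. The authors' deposited table marks 0 of the 22, some of which the authors did not test. Of all genes they tested, 0.745% are marked lower. Lmna, which encodes lamins A and C of the nuclear envelope, had 57.5 FPKM under casein and 45.3 under soy. Lmnb1, the lamin B1 gene, was the 1 gene past the limit, at 4.83 and 2.95 FPKM, 1.64-fold lower, and Lmnb2 had 4.68 and 3.45. Nefm, a neurofilament subunit, was 1.43-fold higher under soy (8.43 and 12.0 FPKM), and Synm, which encodes synemin, a filament protein that links desmin and vimentin to the cell cortex, was 1.27-fold higher (3.50 and 4.46 FPKM).

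Genes whose products tie filaments to junctions went both ways, from a log2 difference of -0.50 to 0.43. Of 17 names for linkers and desmosomal plaque proteins, 12 were found and 10 were expressed. Of these 10, 3 were lower and 7 higher under soy, all 10 within 1.5-fold, with a median log2 difference of 0.02. With 8.08% of all expressed genes at least 1.5-fold lower and 3.43% at least 1.5-fold higher, a count of 0 among 10 does not set these genes apart. Jup, which encodes plakoglobin of the desmosome, had 47.5 FPKM under casein and 48.0 under soy. Dsp, which encodes desmoplakin, the anchor of keratin filaments at desmosomes, had 9.03 and 10.9 FPKM, and Plec, which encodes the cross-linker plectin, 9.29 and 8.66. The plakophilin genes Pkp2 (17.8 and 17.9 FPKM) and Pkp3 (12.3 and 13.8 FPKM) were near equal under both diets. Dst, which encodes the linker dystonin, was 1.35-fold higher under soy (20.4 and 27.4 FPKM). Dsg2, which encodes the desmosomal cadherin desmoglein 2, was 1.43-fold lower (3.65 and 2.56 FPKM). Both differences were larger than that of Krt19.

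**Figure D3:**
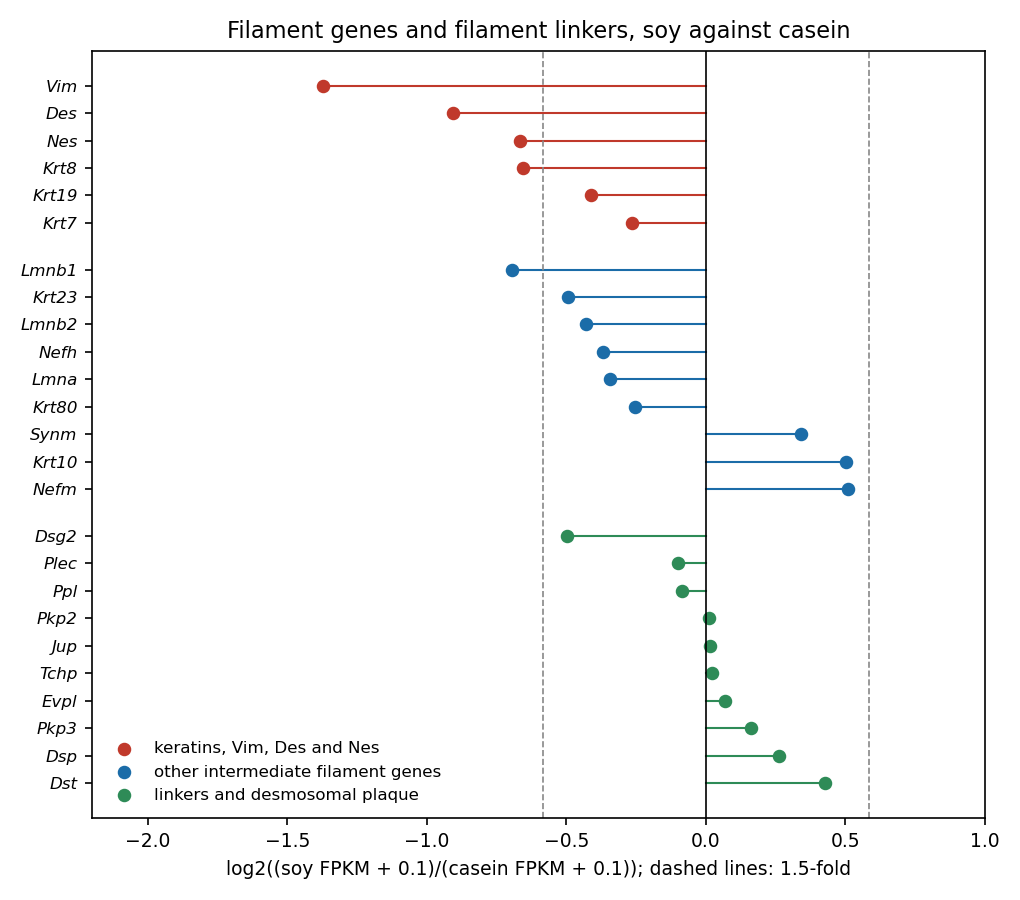
Log2 difference, soy against casein (x axis), of each expressed gene, for the keratins sought with Vim, Des and Nes, for other intermediate filament genes and for linker and desmosomal plaque genes; dashed lines mark 1.5-fold. The first group lies wholly left of 0, 1 gene of the second (Lmnb1) passes the left line, and the third lies within both lines.

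Markers of the tissue were present. The proximal tubule genes Miox (1928 FPKM under casein, 2678 under soy), Slc34a1 (907 and 1044) and Aqp1 (598 and 790) were abundant, and 7 of 8 proximal tubule markers were higher under soy. Of those 7, 1 was past 1.5-fold, while the 1 lower marker had the largest difference of the list (log2 -1.03). The collecting duct and distal tubule list, whose cells hold keratin in the healthy kidney, went both ways. Of its 14 genes 6 were lower and 8 higher under soy, with a median log2 difference of 0.06 and a summed level of 4639 FPKM under casein and 5679 under soy. Umod (2842 and 3662 FPKM), Epcam (462 and 531) and Slc12a1 (304 and 433) were its most abundant genes. Without Umod the sums were 1797 and 2017 FPKM, with a median log2 difference of 0.04. Markers of urothelial cells, which also hold Krt7, Krt19 and Krt20, were listed at low values. The 5 uroplakin genes found summed to 5.15 FPKM under casein and 3.78 under soy, and none was listed at 0. Of the 5, 4 were lower under soy, 3 of them by 1.5-fold or more in plain ratio, but all 4 averaged below 1 FPKM. Upk3a had 1.18 and 0.43 FPKM, Upk2 0.78 and 0.40, Upk1b 0.73 and 0.44, and Upk3b 0.16 and 0.11. Upk1a, the 1 expressed gene among them, had 2.30 and 2.40. The part of collecting duct, distal tubule or urothelial cells in the keratin values was not tested.

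Tubular injury markers were lower under soy together with the keratins and Vim. All 8 genes found were lower, 4 of them past the 1.5-fold limit, with a median log2 difference of -0.81. The genes fell into 2 sets, 4 between -2.10 and -1.34 and 4 between -0.28 and -0.05, so that the median without Spp1 was -0.28, with 3 of 7 past the limit. Their summed level was 6776 FPKM under casein and 1965 under soy, most of it osteopontin, Spp1 (5704 and 1327 FPKM). Without Spp1 the sums were 1072 and 638 FPKM, 1.68-fold lower. Clu, which encodes clusterin, had 471 and 174 FPKM, and Cd24 387 and 358. The part of these cells in the keratin and Vim values was not tested.

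Markers of cell types that carry vimentin did not all differ in the same direction. All 9 expressed leukocyte genes were lower under soy, 8 of them by at least 1.5-fold, and the list of 10 summed to 182 FPKM under casein and 85.0 under soy, 2.15-fold lower. Its most abundant genes were Tyrobp (85.2 and 38.0 FPKM), Laptm5 (44.2 and 20.9) and Cd68 (14.98 and 7.36). Of 7 fibroblast and matrix genes 6 were lower, 4 by at least 1.5-fold, and the list of 9 summed to 229 and 158 FPKM. Its collagen gene Col3a1 had 30.5 and 11.4 FPKM and its fibronectin gene Fn1 25.2 and 12.3, whereas Dcn, which encodes the proteoglycan decorin, had 114 and 99.1. Of 7 endothelial genes 6 were higher under soy, and their sum was 128 FPKM under casein and 151 under soy, with 47.8 and 52.0 for Pecam1, 39.4 and 49.9 for Emcn, and 12.4 and 13.6 for Tie1. The part of leukocytes and fibroblasts in the Vim value was not tested.

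For Des and Nes, the muscle, mesangial and podocyte lists showed smaller differences than the genes themselves. Of 6 smooth muscle, pericyte and mesangial genes 4 were lower and 2 higher, all within 1.5-fold, with a summed level of 101 FPKM under casein and 79.2 under soy over the 7 found. Tagln, which encodes the smooth muscle protein transgelin, had 66.6 and 46.6 FPKM, Rgs5, a pericyte gene, 14.5 and 14.6, and Mcam 10.5 and 9.27. All 8 podocyte genes were lower under soy, each by less than 1.5-fold, with a median log2 difference of -0.19 and sums of 192 and 158 FPKM. Podxl, which encodes podocalyxin of the podocyte surface, had 29.99 and 29.3 FPKM, and Ptpro 22.1 and 19.5. Acta2 and Cnn1 were not found by name and are not analysed here. No marker found in these lists was listed at 0 in either library. The part of these cell types in the Des and Nes values was not tested.

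**Figure D4:**
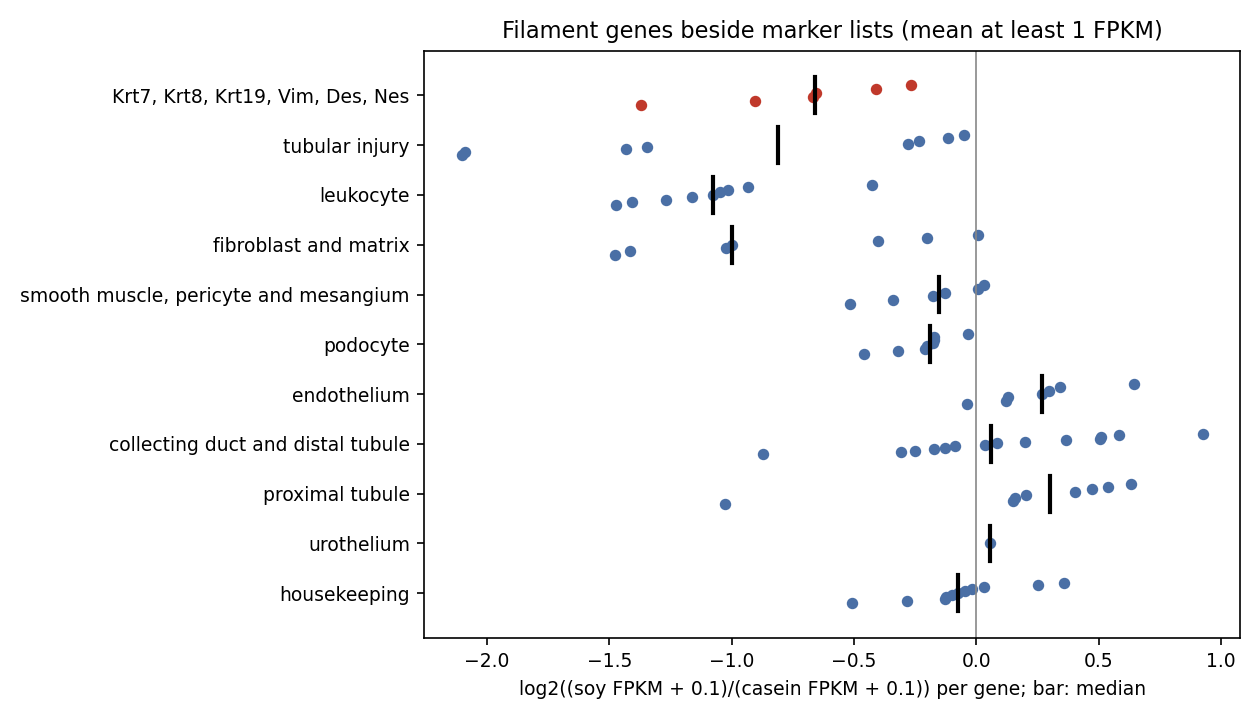
Log2 difference, soy against casein (x axis), of each expressed gene, by list (y axis), with a bar at each median. The filament genes (median -0.66) lie on the same side as the tubular injury (-0.81, or -0.28 without Spp1), leukocyte (-1.08) and fibroblast lists. Also left of 0, but nearer to it, are the podocyte (-0.19), smooth muscle, pericyte and mesangium (-0.15) and housekeeping (-0.08) medians. The endothelial (0.27), proximal tubule (0.30), collecting duct and distal tubule (0.06) and urothelium (0.05) medians lie right of 0.

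The 11 housekeeping genes found were all within 1.5-fold, 8 of them lower and 3 higher under soy, with a median log2 difference of -0.08. Their most abundant genes were B2m (1511 and 1062 FPKM), Rplp0 (1133 and 1035) and Actb (1061 and 871). Actb, the cytoplasmic actin gene of another part of the cytoskeleton, was thus 1.22-fold lower under soy, nearer to Krt7 than to Vim. Log2 differences of the housekeeping genes ran from -0.51 to 0.36, a range that holds those of Krt7 (-0.27) and Krt19 (-0.41).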

How the data were processed

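Kidney RNA was made into TruSeq libraries after column extraction with DNase treatment, per the labels' protocols. Per the submitters' processing notes the tools were Bowtie, TopHat and Cufflinks, with no versions named; the sources used here state neither build nor annotation. The authors deposited a gene table whose diet values are taken as FPKM, from its Cufflinks layout and its sums, with p-values and q-values of the authors' own test, of which the q-values are cited. No header names the unit. The casein and soy columns were identified from their headers.

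From these, log2((soy + 0.1)/(casein + 0.1)) was computed per gene, using genes averaging 1 FPKM or more, which all 6 filament genes passed. With 1 library per diet there is no test. The members and lists were chosen with earlier results of these data known. Of 146 list entries, 127 were matched, 117 by symbol and the others by RefSeq accession or description. Besides the filament genes sought, the text names up to 6 genes of highest mean per filament list and 3 per marker list, of which 1 is not reported here. Krt10, Krt23, Krt15, Krt14, Dsg2, the uroplakin genes other than Upk1a, LOC303341 and K2C75_RAT were named after their values had been seen. With 2 libraries a pattern is a single ratio, so no most similar genes are named. The table's starts count from 0 (in 10 of 12 keratin-associated rows end minus start divides by 3) and are given counted from 1. Counting of calls was tested on simulated data. Scripts ran in Python 3.11.15 with pandas 2.3.3, numpy 2.4.6 and matplotlib 3.10.9.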

Additional observations from a re-analysis of the deposited data

How the results depend on the processing

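Alternatives were pseudocounts of 0.01 and 1, a mean of 5 FPKM or no minimum, centring on the median of expressed or of housekeeping genes, rows of status OK alone, a 2-fold limit, other q limits, the transcript row and, added after seeing the data, the nestin row. All 5 filament genes found by symbol stayed lower with soy in each setting, but only centring could have changed a direction. The other settings leave the order of the casein and soy values as it is, and the Vim transcript row repeats the values of the gene. Log2 differences were -1.38 to -1.30 for Vim, -0.92 to -0.83 for Des, -0.67 to -0.58 for Krt8, -0.42 to -0.33 for Krt19 and -0.28 to -0.19 for Krt7. Centring on housekeeping genes moved Krt8, and with it the median of the 5 genes, to -0.58, inside 1.5-fold, and left 2 genes past the limit. With a 2-fold limit, 1 of the 5 was past it (Vim). Of the other intermediate filament genes, 1 in the main setting, the number past the limit was 0 with a pseudocount of 1, 0 at a minimum mean of 5 FPKM, 0 with a 2-fold limit and 4 with no limit on low values. With no such limit and the plain FPKM ratio, chosen after seeing the data, it was 9 of 22, 8 of them averaging below 1 FPKM. Linker genes stayed at 0, and Vim was the 1 gene with q up to 0.01 or 0.1. No paired analysis was possible because the labels give 1 library per diet, and no replicate could be left out. Depth is unknown, so no counting error can be given.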

Other observations

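Keratins of stratified epithelia were listed at low values. Krt15, a type I keratin of basal cells whose locus lies 5220 bases from that of Krt19, had 1.43 FPKM under casein and 0.51 under soy, 2.79-fold lower, with q = 0.250 in the authors' deposited table. The row K2C75_RAT, described as type II keratin 75, a keratin of hair follicles, had 0.73 and 0.15 FPKM, 4.76-fold lower, with q = 0.0619 in the authors' deposited table. Krt14, the keratin of basal epidermal cells, had 0.20 and 0.09 FPKM. The number of fragments behind values this low is unknown.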
